A study of Mus musculus with 12 samples.

Results

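Kinetochore, spindle checkpoint and mitotic regulator mRNAs were followed in mouse embryonic stem cells, on ribosomes labelled at the endoplasmic reticulum (ER) and in RNA of the whole cell. The set holds 48 genes taken by their symbols, with kinesins left out apart from the kinetochore motor Cenpe. All 48 have a row among the 55416 genes of the count tables, and all 48 were among the 17702 genes that passed the filter on low counts. Their counts ran from 726 to 55998 reads per gene and library.

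The cells were mouse embryonic stem cells of E14Tg2a.4 origin with a FLAG-TEV-AviTag on Rpl31, a protein of the large ribosomal subunit (Rpl31-FTA), which biotin can be attached to. All 4 groups shared this line, the culture in serum with leukaemia inhibitory factor, the ALIBi biotinylation system, and lysis in cycloheximide, a drug that holds ribosomes on their mRNA. The 4 groups combine 2 fractions, ribosome-bound RNA of the ER and whole-cell RNA, with 2 siRNAs, Lsg1 and scramble, and have 3 biological replicates each. Lsg1 is a GTPase of the cytoplasmic maturation of the large ribosomal subunit, and its siRNA is set against the scramble control. ER-bound RNA is RNA that came down with the biotinylated ribosomes, and whole-cell RNA is an aliquot of the lysate that went into the purification, so both fractions of 1 number and siRNA share a lysate. Ribosomes labelled in the cytosol were not analysed here, so ER-bound RNA is set against all polyadenylated RNA of the cell and not against all ribosomes. The labels do not say whether the tagged line is 1 clone, and p-values measure the spread between the samples labelled as biological replicates. In bulk RNA, fewer mitotic cells and less mRNA per cell cannot be told apart.

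The kinetochore is the protein structure that forms on centromeric chromatin and binds spindle microtubules. Its inner layer rests on nucleosomes with the histone variant Cenpa, its outer layer, built around the Knl1, Mis12 and Ndc80 complexes, holds the microtubule, and a fibrous corona spreads outside both before attachment. The spindle checkpoint reads unattached kinetochores and holds back the anaphase-promoting complex until all chromosomes are attached. Apart from Zw10, which also acts in membrane traffic between ER and Golgi, these proteins act in the nucleus, the cytosol and on chromosomes. They are not known as secreted or ER membrane proteins.

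Depth lay between 38092178 and 56522114 reads in genes per library. ER-bound and whole-cell libraries separated along the first principal component, which took 68.5% of the variance. A gene without a given name, ENSMUSG00000119584.1, stood at 18469 CPM (read counts scaled by library size) in replicate 3 of ER-bound RNA with scramble siRNA and 15604 CPM in replicate 3 of whole-cell RNA with Lsg1 siRNA, against 1115 to 4143 CPM in the other 10 libraries. Where a member's call is lost without both libraries, the adjusted p without them is given beside it. All 9 embryonic stem cell markers were detected. Fibroblast markers reached 1 CPM on average for 4 of 10 genes, with a summed level of 51.7 to 62.9 CPM in ER-bound libraries and 30.5 to 33.5 CPM in whole-cell libraries, and Lum at 0. Primitive endoderm markers reached it for 4 of 8 genes, summed to 8.66 to 9.79 CPM, with Ttr at 0. Their part in the results was not tested. Lsg1 itself stood at 43.5 ± 8.62 CPM with Lsg1 siRNA and 148 ± 4.46 CPM with scramble siRNA in ER-bound RNA (SD, n = 3 each), a log2 fold of -1.77 (SE 0.11, adjusted p = 6.3e-08, edgeR). Whole-cell RNA held it at 98.0 ± 15.1 CPM with Lsg1 siRNA and 143 ± 6.38 CPM with scramble siRNA, a log2 fold of -0.55 (SE 0.10, adjusted p = 0.245), which did not pass the threshold of 0.05, but did without both libraries that stand apart (adjusted p = 0.0127).

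Many promoters of the mitotic programme hold a cell cycle homology region (CHR), through which they are repressed outside the late cell cycle, and CCAAT boxes, which bind the activator NF-Y. Both elements are shown here as a sequence feature that the choice of the genes did not use. Of the 48 genes, 42 have a promoter window in the RefSeq table of build GRCm38.p6, running from 250 bases before to 50 after the gene start, in 46 windows. The CHR was searched as TTTGAA or TTCGAA and the CCAAT box as CCAAT, each on both strands, and a base shared by matches of both motifs counted for both. A CHR lay in 50.0% of the members' windows, against 19.2% of all 32851 windows in the table, and a CCAAT box in 69.6%, against 37.4%. Both lay together in 43.5% of the members' windows and in 7.52% of all windows. A match is a run of letters and not a shown binding site. The windows below belong to the 2 genes with the lowest and the 2 with the highest ER-bound to whole-cell fold among those with 1 window, with CHR and CCAAT letters in capitals on either strand. Knl1 lies at chr2:119046869-119047168 (plus strand), Cenpe at chr3:135212313-135212612 (plus), Cenpa at chr5:30666636-30666935 (plus) and Cenpm at chr15:82244287-82244586 (minus).
Knl1: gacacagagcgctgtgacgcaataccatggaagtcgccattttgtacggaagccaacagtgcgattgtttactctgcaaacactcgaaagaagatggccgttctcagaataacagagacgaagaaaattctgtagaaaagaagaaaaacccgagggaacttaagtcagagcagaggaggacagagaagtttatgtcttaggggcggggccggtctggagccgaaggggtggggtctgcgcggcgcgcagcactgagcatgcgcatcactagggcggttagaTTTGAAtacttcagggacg
Cenpe: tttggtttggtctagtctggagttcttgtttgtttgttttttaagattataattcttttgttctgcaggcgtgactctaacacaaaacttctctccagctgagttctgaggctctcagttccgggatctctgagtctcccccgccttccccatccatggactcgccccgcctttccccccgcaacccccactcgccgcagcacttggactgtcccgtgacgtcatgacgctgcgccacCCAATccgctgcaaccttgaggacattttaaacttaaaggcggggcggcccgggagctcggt
Cenpa: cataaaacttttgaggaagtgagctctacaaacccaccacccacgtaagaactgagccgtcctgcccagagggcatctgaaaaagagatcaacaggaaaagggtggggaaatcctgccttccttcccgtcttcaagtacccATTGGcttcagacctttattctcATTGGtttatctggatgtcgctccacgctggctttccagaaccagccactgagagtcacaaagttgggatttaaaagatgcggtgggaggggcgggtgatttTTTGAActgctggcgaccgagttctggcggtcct
Cenpm: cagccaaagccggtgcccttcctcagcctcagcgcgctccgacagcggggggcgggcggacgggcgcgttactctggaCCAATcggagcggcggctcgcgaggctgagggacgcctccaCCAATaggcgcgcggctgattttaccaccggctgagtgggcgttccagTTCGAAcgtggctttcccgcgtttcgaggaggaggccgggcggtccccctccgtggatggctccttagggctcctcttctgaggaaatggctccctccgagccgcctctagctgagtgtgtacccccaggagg
The Knl1 window held 1 CHR and no CCAAT box, the Cenpe window 1 CCAAT box and no CHR, and both the Cenpa and the Cenpm window 1 CHR and 2 CCAAT boxes. As a description without a test, the median log2 fold of ER-bound over whole-cell RNA was -0.21 for the 22 genes with a CHR and -0.03 for the 20 without, and -0.02 for the 29 with a CCAAT box and -0.10 for the 13 without, with scramble siRNA.

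Per length, the members covered a wide span of levels in whole-cell RNA with scramble siRNA. Cdc20, the activator of the anaphase-promoting complex, had 221 RPKM (CPM per kilobase of the longest annotated transcript), followed by the mitotic cyclin Ccnb1 with 197 and the DNA topoisomerase Top2a with 196. Plk1, Aurka and Bub1b stood between 111 and 124 RPKM. The lowest were the inner kinetochore genes Cenpl, with 4.06 RPKM, and Cenpo, with 6.54. A gene that mostly uses a shorter transcript has a higher level per length than given here. The order depends on the length measure. Per kilobase of the longest coding sequence, Birc5 (398), Ccnb1 (379.9) and Cenpa (324) stood highest, and Aspm (9.45) and Knl1 (13.2) lowest.

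The question between the fractions is which mitotic mRNAs take a larger or smaller share of the RNA on ER-labelled ribosomes than of the RNA of the whole cell. The lowest shares were those of the mRNAs with the longest coding sequences: Knl1, Cenpe, Cenpf and Aspm stood at 24.9% to 39.1% of their whole-cell level with scramble siRNA. The short inner kinetochore mRNA Cenpm stood highest, at 151%. In all, 12 of the 48 members (25.0%) were higher and 22 (45.8%) were lower in ER-bound than in whole-cell RNA with scramble siRNA, and 14 did not pass the test. Over all tested genes 29.8% were called higher, 29.1% lower and 58.9% either way. The median log2 fold was -0.04 over the members and 0.03 over all tested genes. With Lsg1 siRNA 13 members were higher and 21 lower, against 30.6% and 29.8% of all tested genes called, with medians of -0.03 and 0.02. Scaling by library totals, which moves the median of all tested genes to 0.11 with either siRNA, gave 20 members higher and 18 lower with scramble siRNA, against 36.4% and 23.4% of all tested genes (59.8% either way), and 22 higher and 19 lower with Lsg1 siRNA, against 37.8% and 23.4% (61.2% either way). ER-bound and whole-cell libraries did not overlap for 39 members with Lsg1 siRNA, against 64.4% of all tested genes, and for 37 with scramble siRNA, against 63.9%. At least 2-fold lower were 4 members with each siRNA, against 3.21% of all tested genes with scramble and 3.35% with Lsg1 siRNA, and no member was 2-fold higher.

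Both siRNAs gave nearly the same picture in libraries that they do not share. The log2 folds of the 48 members correlated between Lsg1 and scramble siRNA with Pearson's r of 0.994 and Spearman's rho of 0.972, a description across genes, which are not independent replicates. That correlation was not taken over all tested genes. Called in both were 31 members, 11 of them higher and 20 lower in each. Of all tested genes 58.9% were called with scramble siRNA and 60.3% with Lsg1 siRNA. The share of all tested genes called with both was not counted, so the overlap is not shown to be particular to the members. Spc24 was called higher and Cenpb lower with scramble siRNA alone, and Aurkb was called higher and Cenpw lower with Lsg1 siRNA alone, while Bod1 was called in opposite directions, higher with Lsg1 siRNA (adjusted p = 0.117 without both libraries that stand apart) and lower with scramble siRNA. Each Bod1 call was lost under several alternatives, given further on. The other 12 were called with neither siRNA, among them the regulators Cdc20, Ccnb1, Cdc25c and Aurka. Several of the 12 did pass under an alternative, given further on. Calls with 1 siRNA alone are not shown to differ between siRNAs, and none of the 48 passed the test of that difference given further on.

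**Figure D1:**
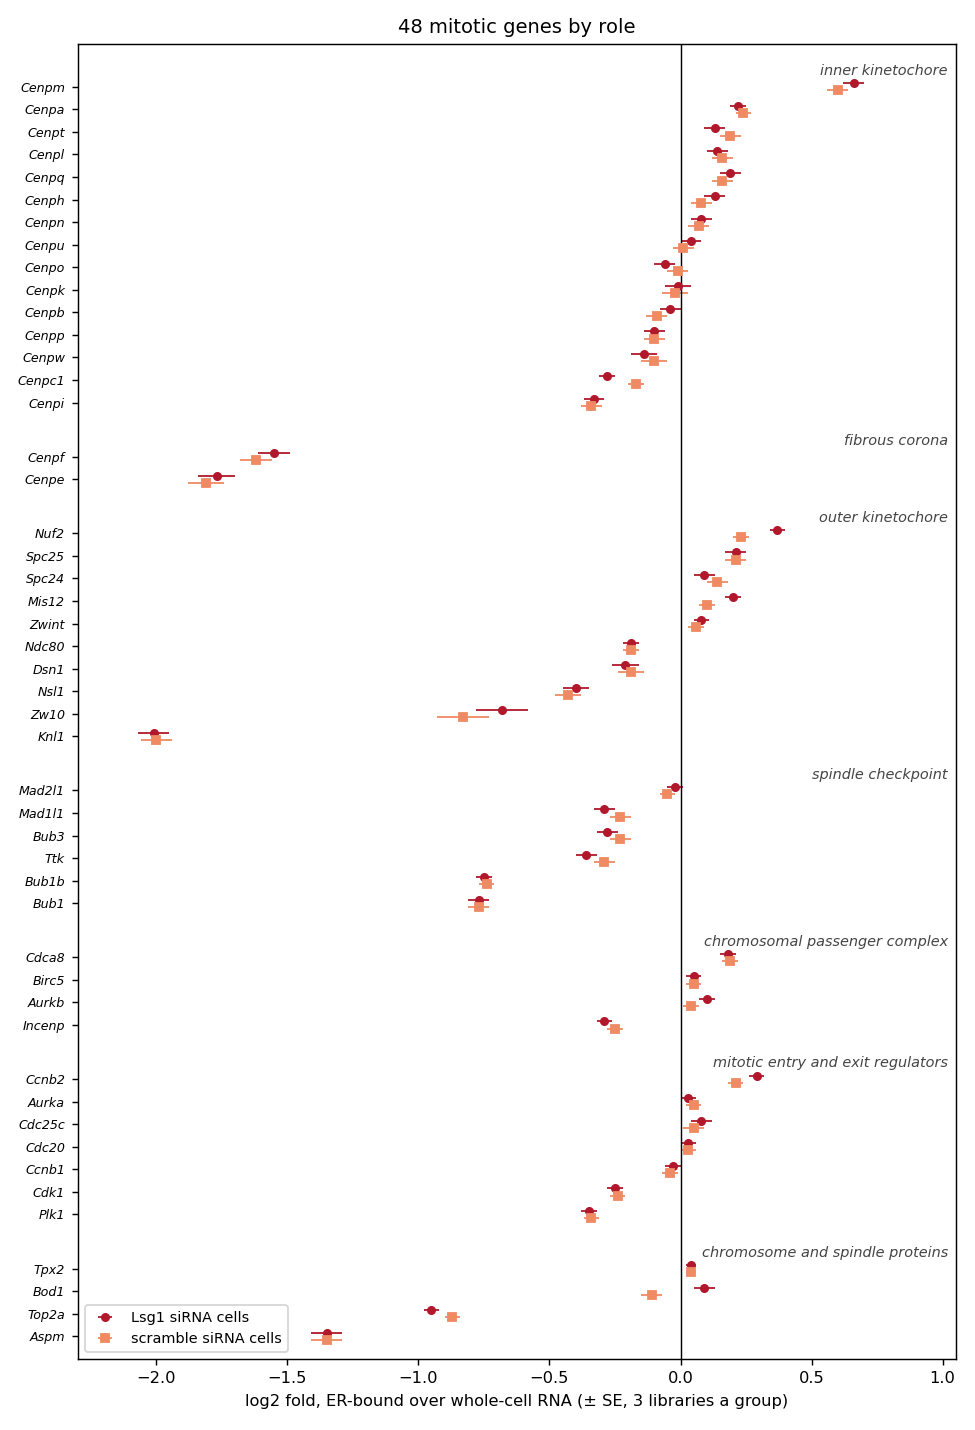
Log2 fold of ER-bound over whole-cell RNA (x axis) for the 48 genes, grouped by role down the page, with circles for Lsg1 siRNA, squares for scramble siRNA and bars of 1 SE on each side. Knl1, Cenpe, Cenpf and Aspm lie below -1 with both siRNAs, and the highest point of the set is Cenpm at 0.66 with Lsg1 siRNA.

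Of the 15 inner kinetochore genes, 6 were higher (40.0%), 4 lower (26.7%) and 5 not called with scramble siRNA. Of all tested genes 29.8% were higher and 29.1% lower, so the share lower was near that of all genes. Their median log2 fold was 0.01 and their range -0.34 to 0.60. Cenpm, a subunit of the constitutive centromere network, had 99.5, 105 and 102 CPM in ER-bound RNA with Lsg1 siRNA and 96.4, 92.2 and 93.6 with scramble siRNA, against 62.2, 66.6 and 65.1 in whole-cell RNA with Lsg1 siRNA and 61.3, 60.3 and 65.1 with scramble siRNA. All 6 ER-bound libraries lay above all 6 whole-cell libraries. The log2 fold was 0.66 with Lsg1 siRNA (SE 0.04, adjusted p = 5.2e-11) and 0.60 with scramble siRNA (SE 0.04, adjusted p = 2.4e-10). Cenpa, the histone H3 variant that marks centromeres, had 155, 156 and 151 CPM in ER-bound RNA with Lsg1 siRNA and 156, 152 and 153 with scramble siRNA, against 133, 136 and 129 in whole-cell RNA with Lsg1 siRNA and 132, 131 and 129 with scramble siRNA. The fractions again did not overlap, and the log2 folds were 0.22 with Lsg1 siRNA (adjusted p = 4.5e-06) and 0.24 with scramble siRNA (adjusted p = 1.6e-06). Cenpt, Cenpq, Cenpl and Cenph were higher by log2 folds of 0.08 to 0.19 with scramble siRNA. Cenph, of the constitutive network, had 48.2, 50.2 and 47.5 CPM in ER-bound RNA with Lsg1 siRNA and 48.4, 47.9 and 46.0 with scramble siRNA, against 44.0, 44.7 and 45.0 in whole-cell RNA with Lsg1 siRNA and 44.3, 44.0 and 46.0 with scramble siRNA, so that replicate 3 was level between the fractions with scramble siRNA. The direction of Cenph turned to -0.04 with an offset for trends in GC content and transcript length, and its call with scramble siRNA (adjusted p = 0.0499) was lost under all alternatives but library totals, among them the lysate block (adjusted p = 0.0581) and leaving out both libraries that stand apart (adjusted p = 0.0804). Under that offset Cenpt stood at -0.01 with Lsg1 siRNA (adjusted p = 0.794) and 0.05 with scramble siRNA (adjusted p = 0.266), and Cenpq at 0.08 with Lsg1 siRNA (adjusted p = 0.105) and 0.06 with scramble siRNA (adjusted p = 0.212), so that neither was called. Cenpt also lost its call with Lsg1 siRNA without both libraries that stand apart (adjusted p = 0.0579). Cenpl had a log2 fold of 0.14 with Lsg1 siRNA (adjusted p = 0.0099), and did not pass there with DESeq2 (adjusted p = 0.0582) or without both libraries that stand apart (adjusted p = 0.147).

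The 4 inner kinetochore genes called lower with scramble siRNA had log2 folds of -0.34 to -0.09. Cenpi, a subunit of the constitutive network, had log2 folds of -0.33 with Lsg1 siRNA (adjusted p = 1.2e-06) and -0.34 with scramble siRNA (adjusted p = 7.6e-07). Cenpc1, the protein that ties centromeric nucleosomes to the outer layer, averaged 41.9 CPM in ER-bound RNA with Lsg1 siRNA, against 51.0 in whole-cell RNA with Lsg1 siRNA, and its log2 fold was -0.28 with Lsg1 siRNA (adjusted p = 6.2e-07) and -0.17 with scramble siRNA (adjusted p = 0.00021). Cenpb, which binds a short motif in centromeric repeats, and Cenpp were close to the threshold, with log2 folds of -0.09 and -0.10 with scramble siRNA, and neither was called with library totals. Cenpw, the histone-fold partner of Cenpt, had a log2 fold of -0.14 with Lsg1 siRNA (adjusted p = 0.0227), which did not pass with library totals (-0.05). Under the GC and length offset Cenpw passed as higher with Lsg1 siRNA (0.39, adjusted p = 2.4e-05). With scramble siRNA it stood at -0.10 (adjusted p = 0.0933), and passed as lower with the lysate block (adjusted p = 0.0449) or without any 1 of 3 libraries (adjusted p of 0.0166 without replicate 1 of ER-bound RNA with scramble siRNA, 0.0398 without replicate 3 of ER-bound RNA with Lsg1 siRNA and 0.049 without replicate 1 of whole-cell RNA with Lsg1 siRNA). It passed as higher with the GC and length offset (0.43).

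The fibrous corona genes were lower without exception in this set of 2. Of all tested genes 29.1% were lower with scramble siRNA and 29.8% with Lsg1 siRNA. Cenpe, the motor that carries chromosomes along microtubules (ENSMUSG00000045328.12), had 41.8, 44.9 and 45.0 CPM in ER-bound RNA with Lsg1 siRNA and 38.5, 44.1 and 45.2 with scramble siRNA, against 164, 152 and 134 in whole-cell RNA with Lsg1 siRNA and 155, 145 and 148 with scramble siRNA. The log2 fold was -1.77 with Lsg1 siRNA (SE 0.07, adjusted p = 2.3e-13) and -1.81 with scramble siRNA (SE 0.07, adjusted p = 2.5e-13). Cenpf, a large coiled-coil protein of the corona (ENSMUSG00000026605.15), had 77.8, 79.3 and 81.7 CPM in ER-bound RNA with Lsg1 siRNA and 68.7, 77.3 and 80.4 with scramble siRNA, against 255, 232 and 211 in whole-cell RNA with Lsg1 siRNA and 239.9, 223 and 231 with scramble siRNA. Its log2 fold was -1.55 with Lsg1 siRNA (SE 0.06, adjusted p = 4.2e-13) and -1.62 with scramble siRNA (SE 0.06, adjusted p = 3.6e-13). The fractions of neither gene overlapped.

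Outer kinetochore genes split within their complexes: of 10 genes, 4 were higher, 5 lower and 1 not called with scramble siRNA. Of all tested genes 29.8% were higher and 29.1% lower. Knl1, the scaffold that recruits checkpoint proteins (ENSMUSG00000027326.14), had the lowest fold of all 48. It had 20.1, 20.4 and 21.2 CPM in ER-bound RNA with Lsg1 siRNA and 19.7, 21.1 and 21.9 with scramble siRNA, against 90.2, 83.3 and 74.5 in whole-cell RNA with Lsg1 siRNA and 85.7, 79.6 and 86.1 with scramble siRNA. The log2 fold was -2.01 with Lsg1 siRNA (SE 0.06, adjusted p = 2.2e-14) and -2.00 with scramble siRNA (SE 0.06, adjusted p = 2.9e-14), or 24.9% of the whole-cell level with either.

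The 4 genes of the Ndc80 complex, the rod that holds the microtubule, did not share a direction. Ndc80 was lower, at a log2 fold of -0.19 with either siRNA (adjusted p = 0.00011 with Lsg1 and 9.9e-05 with scramble siRNA). Its dimer partner Nuf2 had 89.6, 90.5 and 87.7 CPM in ER-bound RNA with Lsg1 siRNA and 80.4, 79.6 and 79.9 with scramble siRNA, against 69.5, 69.4 and 68.5 in whole-cell RNA with Lsg1 siRNA and 68.2, 69.5 and 67.1 with scramble siRNA. It was higher in every ER-bound library, at 0.37 with Lsg1 siRNA (adjusted p = 5.2e-09) and 0.23 with scramble siRNA (adjusted p = 3.0e-06), and Spc25 was higher by 0.21 with either siRNA. Spc24, the partner of Spc25, was higher with scramble siRNA (0.14, adjusted p = 0.00485), and stood at 0.09 with Lsg1 siRNA (adjusted p = 0.0566). Under the GC and length offset Spc24 passed as lower with scramble siRNA (-0.11, adjusted p = 0.0145). In the Mis12 complex, which joins the Ndc80 rod to the inner layer, Nsl1 was lower by -0.40 with Lsg1 siRNA (adjusted p = 4.1e-07) and -0.43 with scramble siRNA (adjusted p = 1.7e-07), and Dsn1 by -0.21 with Lsg1 siRNA and -0.19 with scramble siRNA, the second not past the threshold with library totals. Mis12 was higher, by 0.20 with Lsg1 siRNA (adjusted p = 2.4e-05) and 0.10 with scramble siRNA (adjusted p = 0.0109), the second of which did not pass with DESeq2 (adjusted p = 0.0732), without both libraries that stand apart (adjusted p = 0.0942) or with the GC and length offset (0.02, adjusted p = 0.634). Exons of Mis12 overlap those of Derl2 on the opposite strand, and whether reads of Derl2 entered its count was not tested.

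Zw10, a subunit of the checkpoint's Rod-Zw10-Zwilch complex that also acts in membrane traffic between ER and Golgi, had 47.5, 51.2 and 48 CPM in ER-bound RNA with Lsg1 siRNA and 32.4, 49.8 and 50.0 with scramble siRNA, against 75.3, 78.1 and 81.2 in whole-cell RNA with Lsg1 siRNA and 74.9, 80.5 and 80.1 with scramble siRNA. Replicate 1 of ER-bound RNA with scramble siRNA was the lowest, and no ER-bound library reached a whole-cell library. The log2 fold was -0.68 with Lsg1 siRNA (SE 0.10, adjusted p = 1.5e-05) and -0.83 with scramble siRNA (SE 0.10, adjusted p = 1.4e-06), and -0.66 with scramble siRNA without the low library. Zwint, which binds Knl1, was the outer kinetochore gene called with neither siRNA, though it passed as higher with Lsg1 siRNA and the lysate block (0.08, adjusted p = 0.0396).

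Among 6 spindle checkpoint genes, 5 were lower and none higher with either siRNA. Of all tested genes 29.1% were lower and 29.8% higher with scramble siRNA, and 29.8% lower and 30.6% higher with Lsg1 siRNA. Bub1b, the pseudokinase that inhibits Cdc20, had 240, 245 and 249.7 CPM in ER-bound RNA with Lsg1 siRNA and 233, 245 and 253 with scramble siRNA, against 415, 410.2 and 409 in whole-cell RNA with Lsg1 siRNA and 405, 404 and 414 with scramble siRNA. The fractions were far apart relative to the spread, with log2 folds of -0.75 with Lsg1 siRNA (SE 0.03, adjusted p = 5.6e-13) and -0.74 with scramble siRNA (SE 0.03, adjusted p = 8.2e-13). The kinase Bub1 had a log2 fold of -0.77 with either siRNA (SE 0.04; adjusted p = 4.5e-11 with Lsg1 and 4.9e-11 with scramble siRNA). Ttk, the kinase that starts checkpoint signalling at Knl1, stood at -0.36 with Lsg1 siRNA and -0.29 with scramble siRNA. Mad1l1, the platform for Mad2l1, stood at -0.29 with Lsg1 siRNA and -0.23 with scramble siRNA, and Bub3, the partner of both Bub proteins, at -0.28 with Lsg1 siRNA and -0.23 with scramble siRNA. Mad2l1, the small effector of the checkpoint, was the one not called, at -0.02 with Lsg1 siRNA (adjusted p = 0.498) and -0.05 with scramble siRNA (adjusted p = 0.153), and its fold was positive with library totals (0.06 with Lsg1 siRNA and 0.03 with scramble siRNA, not called) and with the GC and length offset (0.46 with either, called).

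The chromosomal passenger complex corrects wrong attachments and drives cytokinesis. Its scaffold Incenp was lower, by -0.29 with Lsg1 siRNA (adjusted p = 2.5e-07) and -0.25 with scramble siRNA (adjusted p = 1.6e-06), while its subunit Cdca8 (borealin) was higher, by 0.18 with Lsg1 siRNA (adjusted p = 4.5e-05) and 0.19 with scramble siRNA (adjusted p = 2.4e-05). The kinase Aurkb passed only with Lsg1 siRNA, at 0.10 (adjusted p = 0.0121), not without both libraries that stand apart (adjusted p = 0.0525) and in the opposite direction with the GC and length offset (-0.14). Its call was also lost with no filter on low counts (adjusted p = 0.12) and when most single libraries were left out (adjusted p of 0.0522 to 0.22 in those cases). Birc5 (survivin) had log2 folds of 0.05 with either siRNA and was not called, but stood past the threshold with library totals (0.14 with Lsg1 and 0.13 with scramble siRNA).

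Of 7 entry and exit regulators, 1 was higher (14.3%), 2 lower (28.6%) and 4 not called with either siRNA. The share lower was near that of all tested genes, 29.1% with scramble siRNA and 29.8% with Lsg1 siRNA. Called higher were 29.8% of all tested genes with scramble siRNA and 30.6% with Lsg1 siRNA. The cyclin Ccnb2 had 173, 171 and 169 CPM in ER-bound RNA with Lsg1 siRNA and 164, 161 and 159 with scramble siRNA, against 142, 141 and 136 in whole-cell RNA with Lsg1 siRNA and 139, 137 and 143 with scramble siRNA. Its fractions did not overlap, with log2 folds of 0.29 with Lsg1 siRNA (adjusted p = 1.1e-07) and 0.21 with scramble siRNA (adjusted p = 7.4e-06), the second not past the threshold with the GC and length offset (0.03). Its paralogue Ccnb1 stood at -0.03 with Lsg1 siRNA and -0.04 with scramble siRNA, not called. With the GC and length offset Ccnb1 passed as lower, at -0.14 with Lsg1 siRNA (adjusted p = 0.00034) and -0.13 with scramble siRNA (adjusted p = 0.00074). Cdc20, likewise not called, passed as higher with library totals (0.11 with either siRNA, adjusted p = 0.00189 with Lsg1 and 0.00264 with scramble). With the offset it passed as lower, at -0.25 with Lsg1 siRNA and -0.24 with scramble siRNA. Cdk1, the kinase that both cyclins activate, had log2 folds of -0.25 with Lsg1 siRNA (adjusted p = 9.5e-07) and -0.24 with scramble siRNA (adjusted p = 1.4e-06). Plk1, a kinase of entry and exit, had -0.35 with Lsg1 siRNA (adjusted p = 7.2e-09) and -0.34 with scramble siRNA (adjusted p = 1.1e-08).

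Among the 4 chromosome and spindle proteins, 3 were lower with scramble siRNA, where 29.1% of all tested genes were. Aspm, a large spindle-pole protein (ENSMUSG00000033952.15), had 36.0, 31.9 and 35.1 CPM in ER-bound RNA with Lsg1 siRNA and 31.9, 34.6 and 37.4 with scramble siRNA, against 95.8, 83.8 and 83.2 in whole-cell RNA with Lsg1 siRNA and 88.6, 83.3 and 93.5 with scramble siRNA, a log2 fold of -1.35 with either (SE 0.06; adjusted p = 4.5e-12 with Lsg1 and 5.1e-12 with scramble siRNA). Top2a, which untangles sister chromatids, had 535, 534 and 521 CPM in ER-bound RNA with Lsg1 siRNA and 547, 563 and 565 with scramble siRNA, against 1052, 1014 and 999 in whole-cell RNA with Lsg1 siRNA and 1009.6, 1015 and 1042 with scramble siRNA. Both genes had every ER-bound library below every whole-cell library. The log2 fold of Top2a was -0.95 with Lsg1 siRNA (adjusted p = 8.6e-15) and -0.87 with scramble siRNA (adjusted p = 2.8e-14). Tpx2, which switches on Aurka at the spindle, stood at 0.04 with either siRNA and was not called, though it was with library totals (0.13 with Lsg1 and 0.12 with scramble siRNA). With the GC and length offset it also passed as higher, at 0.07 with Lsg1 siRNA (adjusted p = 0.0259) and 0.10 with scramble siRNA (adjusted p = 0.00503).

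**Figure D2:**
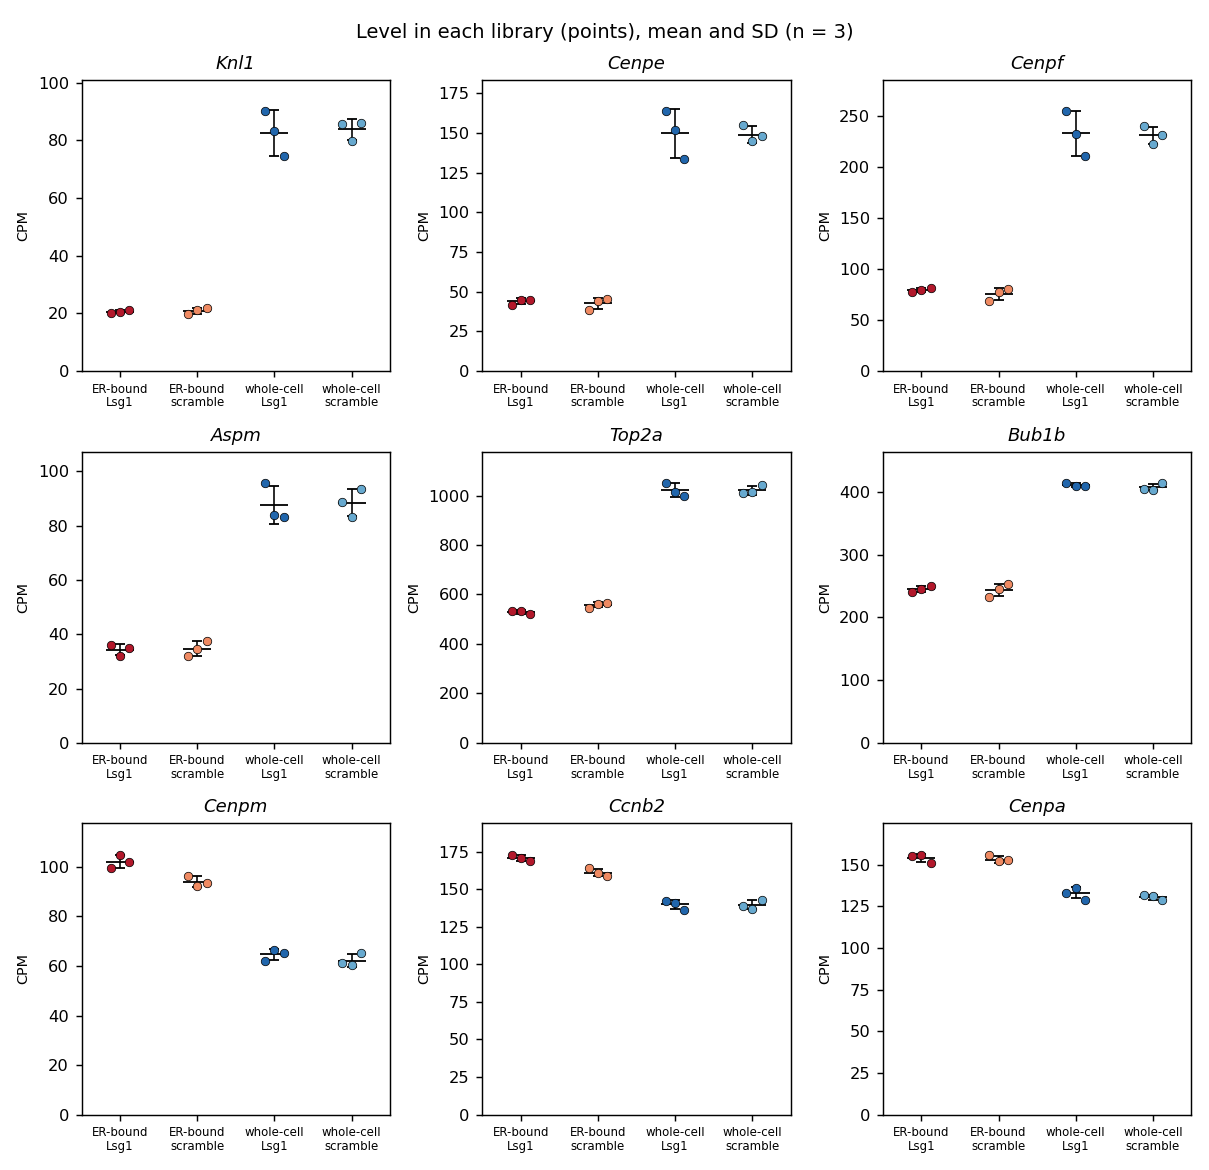
Level in CPM (y axis, from 0) of 9 members in each of the 12 libraries, with points for libraries and bars for the mean and SD of 3 replicates. For Knl1, Cenpe, Cenpf, Aspm, Top2a and Bub1b every ER-bound library lies below every whole-cell library, and for Cenpm, Ccnb2 and Cenpa every one lies above.

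Long mRNAs of the set had lower folds of ER-bound over whole-cell RNA than short ones. The difference was larger by coding length than by transcript length, which is given as a description without a test. By the longest annotated transcript, the 16 shortest members (1202 to 2634 bases) had a median log2 fold of 0.05 with scramble siRNA, with 6 higher and 3 lower. The next 16 (2636 to 3806 bases) had -0.18, with 4 higher and 9 lower, and the 16 longest (3847 to 11130 bases) had -0.21, with 2 higher and 10 lower. All tested genes in the same 3 ranges had medians of 0.14, 0.02 and -0.17, with 39.5%, 31.6% and 20.4% higher and 14.0%, 29.5% and 50.0% lower. The longest minus the shortest members came to -0.30 with Lsg1 siRNA and -0.27 with scramble siRNA, and to -0.09 with Lsg1 and -0.08 with scramble siRNA once trends with GC content and transcript length over all genes were taken out. The difference was negative in each of the 6 lysates, at -0.33 to -0.29 with Lsg1 siRNA and -0.26 to -0.24 with scramble siRNA.

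By coding length, the 16 longest members (1809 to 9366 bases) had a median log2 fold of -0.52 with Lsg1 siRNA and -0.54 with scramble siRNA, and 15 of the 16 were lower with each, Tpx2 being the exception. Among all tested genes of that range, 55.4% were lower with Lsg1 siRNA and 55.1% with scramble siRNA, at a median of -0.23 with either. The 16 of middle coding length (918 to 1797 bases) had 5 higher and 3 lower with scramble siRNA and the 16 shortest (258 to 894 bases) 7 higher and 4 lower, with medians of 0.04 and 0.06. Of all tested genes in the middle range 35.6% were higher and 25.8% lower, at a median of 0.07, and in the short range 53.9% were higher and 9.06% lower, at a median of 0.21. The longest minus the shortest came to -0.60 with either siRNA, and to -0.67 to -0.52 within single lysates. With the GC and length offset the 16 longest had a median of -0.66 with Lsg1 siRNA and -0.64 with scramble siRNA, with 15 lower. That offset takes out trends with GC content and transcript length, and not with coding length. Medians and calls of all tested genes in that range were not taken under the offset.

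A bound of 3 kb of coding sequence, chosen after the values were seen, set apart 7 members: Knl1, Cenpe, Cenpf, Aspm, Top2a, Bub1 and Bub1b. All 7 were lower with both siRNAs, at a median log2 fold of -1.35 with either and a range of -2.00 to -0.74 with scramble siRNA. Among all 2050 tested genes above that bound, 65.8% were lower with Lsg1 siRNA and 65.9% with scramble siRNA, at a median of -0.45. With the GC and length offset, which does not hold coding length, the 7 had a median of -0.91 with Lsg1 siRNA and -0.88 with scramble siRNA. The median of all tested genes above that bound was not taken under the offset. The other 41 members had 12 higher, 15 lower and 14 not called with scramble siRNA, at a median of 0.01. Of all tested genes at or below that bound 37.6% were higher and 26.0% lower with scramble siRNA.

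The set also holds 7 mRNAs with a transcript over 4 kb and a coding sequence under 1.1 kb, bounds likewise chosen after the values were seen. These were Bub3, Cdk1, Cenpl, Cenpo, Cenpw, Mad2l1 and Nsl1, whose log2 folds lay between -0.43 and 0.16 with scramble siRNA, with a median of -0.10. All lay above the folds of the members with more than 3 kb of coding sequence. Across the 48 members, the log2 fold of ER-bound over whole-cell RNA had a Spearman rho of -0.68 with coding length, -0.53 with transcript length and 0.15 with GC content with Lsg1 siRNA, and of -0.64, -0.49 and 0.13 with scramble siRNA. Across all tested genes the values were -0.42, -0.29 and 0.23 with Lsg1 siRNA and -0.45, -0.33 and 0.24 with scramble siRNA. These are descriptions across genes that share libraries, and the 2 length measures overlap.

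**Figure D3:**
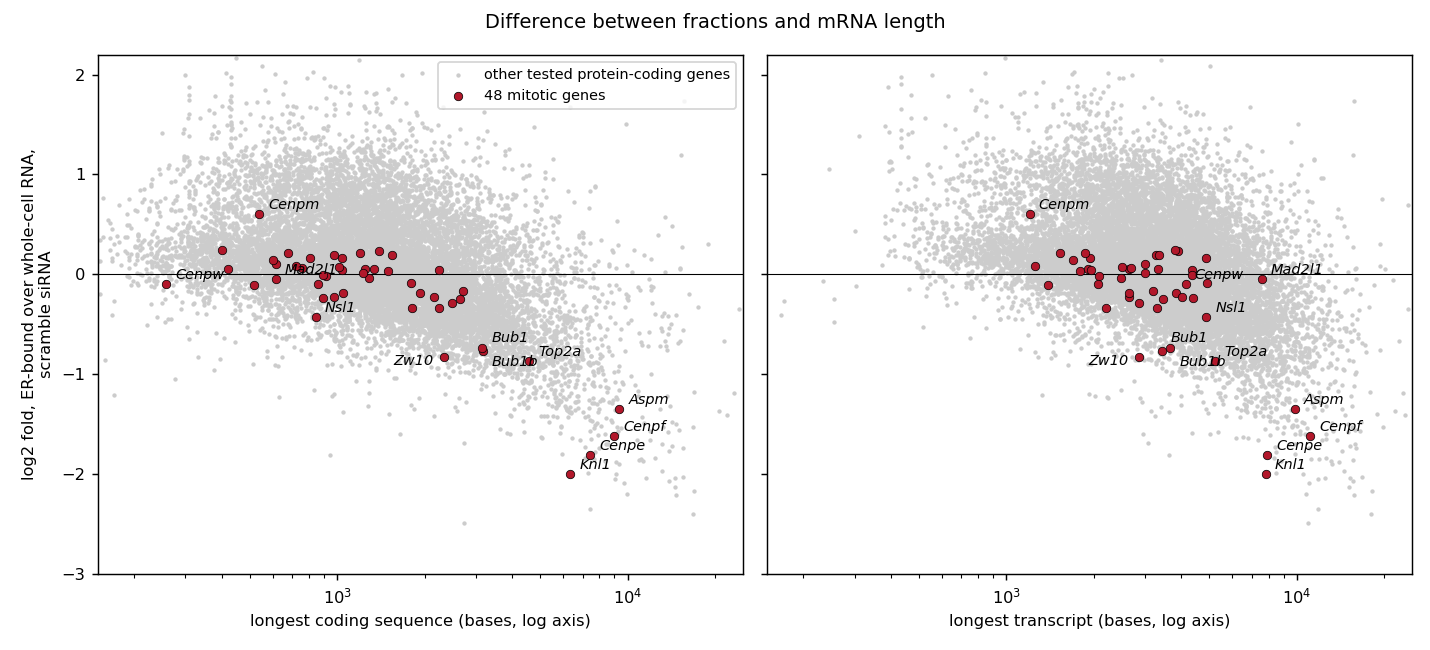
Log2 fold of ER-bound over whole-cell RNA with scramble siRNA (y axis) against coding length (left) and transcript length (right) in bases (x axes, log scale), with the 48 members in colour over the other tested protein-coding genes in grey, some of which lie outside the plotted range. The members with more than 3 kb of coding sequence all lie between -2.00 and -0.74.

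**Figure D4:**
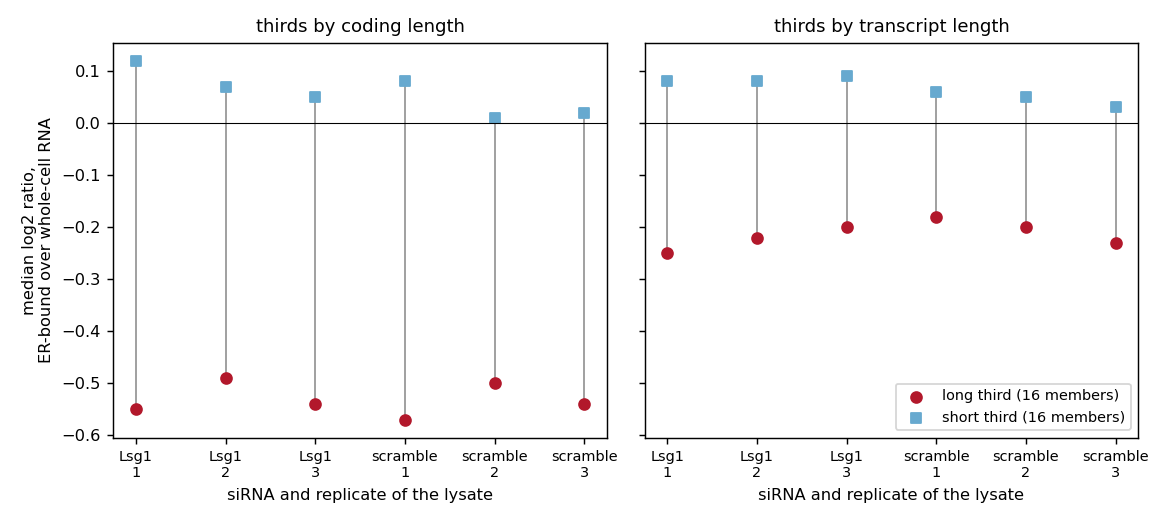
Median log2 ratio of ER-bound over whole-cell CPM (y axis) within each of the 6 lysates (x axis, Lsg1 then scramble siRNA), for the 16 longest members (circles) and the 16 shortest (squares), by coding length on the left and transcript length on the right. By coding length the median of the longest lies between -0.57 and -0.49 in every lysate, and that of the shortest members between 0.01 and 0.12.

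A list of 99 other mitotic genes was described beside the set, and 98 had an ID in the tables, all of them tested. With scramble siRNA 14 were higher, 66 lower and 18 not called, at a median log2 fold of -0.23, where 29.8% of all tested genes were higher and 29.1% lower. Cohesin and condensin genes, which hold and compact chromosomes, had 21 of 23 lower and 1 higher, at a median of -0.60, led by the cohesin loader Nipbl (-1.70, adjusted p = 2.4e-13). Genes of the spindle, centrosome and cytokinesis had 21 of 29 lower and 1 higher, among them the centrosome protein Cep192 (-1.47, adjusted p = 1.2e-11). Anaphase-promoting complex genes had 9 of 18 lower, with the large subunit Anapc1 at -1.59 (adjusted p = 3.8e-12), and 6 higher, with the small subunit Anapc11 at 0.26 (adjusted p = 1.1e-06). Other kinetochore genes had 9 of 18 lower and 3 higher, with the cohesin protector Sgo2a at -1.39 (adjusted p = 2.2e-13) and the small histone-fold protein Cenpx at 0.37 (adjusted p = 1.9e-06). Entry kinases and transcription factors had 6 of 10 lower and 3 higher, with the Cdk1-inhibiting kinase Pkmyt1 at 0.50 (adjusted p = 2.7e-09). Above 3 kb of coding sequence 26 of 26 of these other genes were lower with each siRNA, at medians of -0.84 with Lsg1 and -0.88 with scramble siRNA, where 65.8% of all tested genes above that bound were lower with Lsg1 and 65.9% with scramble siRNA. At or below it 40 of 72 were lower and 14 higher with scramble siRNA, at a median of -0.11, where 26.0% of all tested genes at or below it were lower and 37.6% higher.

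The siRNA comparison asks whether lowering Lsg1 changes which mitotic mRNAs are on ER-labelled ribosomes, or their level in the cell. On ER-labelled ribosomes 4 of 48 members were called between Lsg1 and scramble siRNA, 3 of them higher and 1 lower, against 2.63% of all tested genes called higher, 1.38% lower and 4.01% either way. The log2 folds of the members ran from -0.15 to 0.24, with a median of 0.01, and 9 members had an unadjusted p under 0.05, as did 17.2% of all tested genes. The length groups moved little: the 16 shortest transcripts had a median of 0.03, and the members with more than 3 kb of coding sequence had no call.

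Bod1, which in human cells restrains a kinetochore phosphatase (ENSMUSG00000044502.17), had 61.5, 60.5 and 61.6 CPM in ER-bound RNA with Lsg1 siRNA, against 54.2, 49.5 and 52.2 with scramble siRNA, while whole-cell RNA held 55.7, 57.4 and 59.1 CPM with Lsg1 siRNA and 54.9, 55.6 and 57.6 with scramble siRNA. The ER-bound groups did not overlap, and the log2 fold was 0.24 (adjusted p = 0.00176, 0.19 to 0.26 over the alternatives, past the threshold in each). Nuf2, with its values given above, did not overlap between Lsg1 and scramble siRNA in ER-bound RNA, with a log2 fold of 0.16 (adjusted p = 0.00514). It lost its call without replicate 2 of ER-bound RNA with either siRNA, at adjusted p of 0.0596 (without the Lsg1 library) and 0.0517 (without the scramble library). Mis12 had 62.7, 60.1 and 62.2 CPM in ER-bound RNA with Lsg1 siRNA, against 57.1, 56.5 and 57.3 with scramble siRNA, and 54.6, 53.6 and 53.5 CPM in whole-cell RNA with Lsg1 siRNA, against 53.6, 53.2 and 52.9 with scramble siRNA. Cenpo, a subunit of the constitutive network, had 25.3, 25.4 and 25.6 CPM in ER-bound RNA with Lsg1 siRNA, against 28.4, 28.0 and 28.1 with scramble siRNA, and 25.4, 27.3 and 26.7 CPM in whole-cell RNA with Lsg1 siRNA, against 27.8, 29.4 and 28.1 with scramble siRNA. The log2 folds in ER-bound RNA were 0.11 for Mis12 (adjusted p = 0.0426) and -0.15 for Cenpo (adjusted p = 0.0387), without overlap between the groups. Neither passed with DESeq2 (adjusted p = 0.0706 for Mis12 and 0.0678 for Cenpo) or without both libraries that stand apart (adjusted p = 0.174 for Mis12 and 0.066 for Cenpo), and Mis12 lost its call whichever of the 12 libraries was left out. Cenpo lost its call when any single ER-bound library was left out (adjusted p of 0.0554 to 0.107). It also did so with library totals (adjusted p = 0.0608) and with no filter on low counts (adjusted p = 0.0587). Exons of Mis12 and Cenpo overlap genes on the opposite strand, and the strand setting of the counts is not given in the sources used here.

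**Figure D5:**
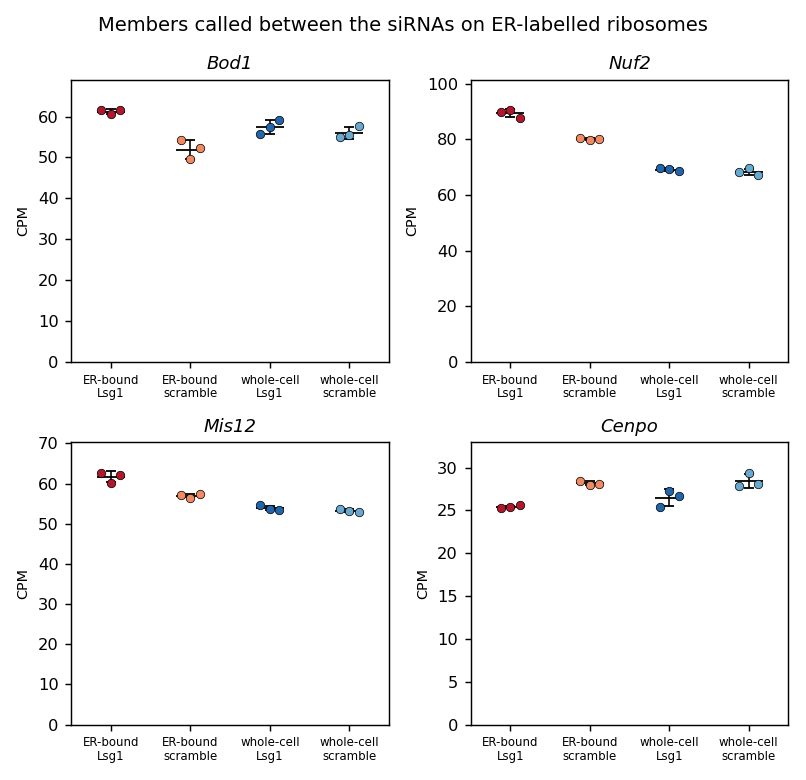
Level in CPM (y axis, from 0) in each of the 12 libraries of the 4 members called between the siRNAs on ER-labelled ribosomes, with the mean and SD of 3 replicates. ER-bound RNA with Lsg1 siRNA lies above ER-bound RNA with scramble siRNA for Bod1, Nuf2 and Mis12 and below it for Cenpo.

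In whole-cell RNA no member was called between Lsg1 and scramble siRNA with edgeR (0.0% of all tested genes), and none with DESeq2, which called 5 genes in all. The members' log2 folds ran from -0.10 to 0.09, and 1 of 48 had an unadjusted p under 0.05, as did 4.13% of all tested genes. That member was Cenpo, at -0.10 (unadjusted p = 0.0176). For the change of the ER-bound to whole-cell ratio with Lsg1 siRNA no member was called with edgeR (0.0226% of all tested genes) or DESeq2 (18 genes in all), where edgeR called 0.0113% of all tested genes higher and 0.0113% lower. The members' values ran from -0.11 to 0.20 on the log2 scale, and 4 had an unadjusted p under 0.05 (6.89% of all tested genes). They were Bod1 (0.20, unadjusted p = 0.00143), Nuf2 (0.14, 0.00429), Cenpc1 (-0.11, 0.0262) and Mis12 (0.10, 0.0401), and the lowest adjusted p was 0.426.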

How the data were processed

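RNA-seq of 12 libraries in 4 groups of 3 was analysed. Per the labels' protocols, poly-A RNA was made into stranded paired-end libraries. The deposited tables hold raw counts per gene; per the submitters' processing notes, the authors aligned reads to GRCm39 with STAR 2.7.9a, counted with HTSeq 0.11.2 and used DESeq2 (no version given). The sources used here give neither the strand setting nor the annotation release, nor whether pairs or read ends were counted. Reads in no feature (2.65% to 5.26%), ambiguous reads (0.97% to 1.16%) and reads that map to several places (6.09% to 8.23%) stayed out of library sizes. Gene names, lengths and GC content came from GENCODE M21 on GRCm38, matched by ID without version, with the longest transcript and the longest coding sequence of each gene. Exons of 14 members overlap exons of another gene there, so their counts are less certain. The overlap is on the same strand for 2 (Cenpb and Top2a). It is on the opposite strand for 12 (Cdc20, Cdc25c, Cdca8, Cenpk, Cenpo, Cenpp, Cenpq, Cenpt, Cenpu, Mad1l1, Mis12 and Plk1).

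Counts were filtered with filterByExpr (17702 of 55416 genes kept), scaled by TMM and tested with edgeR 4.0.16 in R 4.3.3 (quasi-likelihood test, 1 mean per group over all 12 libraries, prior count 2, with 8 degrees of freedom left and a coefficient of variation between replicates of 4.42%). P-values are two-sided and adjusted by Benjamini-Hochberg over all tested genes, with a threshold of 0.05. CPM are TMM-scaled, and SD or SE cover counting error and replicate spread together. The alternatives tried were library totals or DESeq2's size factors in place of TMM, DESeq2 1.42.0 in place of edgeR, all genes without the count filter, a block, an offset for GC content and transcript length (splines with 5 degrees of freedom), each library left out, both libraries that stand apart left out and, for length, coding length or a split into 2 groups. For the fractions the block is the lysate, since the series' design text says that both came from 1 lysate; deviations of same-lysate libraries from their group means correlated at 0.00241 to 0.138 over all tested genes.

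Values in every library are given for the 4 members with the smallest p in each direction between the fractions with scramble siRNA, those called between the siRNAs, Bod1, and the 3 longest and 3 shortest by transcript; Zw10 and Bub1b were added after their values were seen. Members, role lists and the other mitotic genes were chosen with earlier results of these data known. On simulated counts with 200 changed genes, changes of 1.5-fold were found for 91.5% (ER-bound against whole-cell RNA, scramble siRNA, 17433 genes), 89.0% (the same with Lsg1 siRNA, 17429 genes), 91.5% (siRNAs in ER-bound RNA, 17423 genes), 92.5% (siRNAs in whole-cell RNA, 17392 genes) and 83.0% (interaction, 17420 genes). In the data far more genes differ between the fractions (10422 called with scramble siRNA). Changes as small as the members' between the siRNAs in ER-bound RNA (log2 folds of -0.15 to 0.24) were not simulated, so these rates do not cover them. Promoter sequences are RefSeq's. Figures are from matplotlib 3.10.9 (Python 3.11.15).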

Additional observations from a re-analysis of the deposited data

Results flagged for a closer look

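Bod1 moved in opposite directions between the siRNAs. Its ER-bound over whole-cell ratio lay above 1 in all 3 lysates with Lsg1 siRNA and below 1 in all 3 with scramble siRNA, and its log2 fold was 0.09 with Lsg1 siRNA (adjusted p = 0.0415) and -0.11 with scramble siRNA (adjusted p = 0.0186, edgeR). In whole-cell RNA its level was 55.7, 57.4 and 59.1 CPM with Lsg1 siRNA, against 54.9, 55.6 and 57.6 CPM with scramble siRNA, where the groups overlap. The test of the difference itself gave 0.20 on the log2 scale with adjusted p = 0.426, so it did not pass over all tested genes. With the GC and length offset the fold with Lsg1 siRNA turned to -0.19 and passed as lower (adjusted p = 0.00014). The fold with Lsg1 siRNA did not pass with DESeq2 (adjusted p = 0.139), with no filter on low counts (adjusted p = 0.186) or without both libraries that stand apart (adjusted p = 0.117). It also failed with DESeq2's size factors (adjusted p = 0.094) and when most single libraries were left out (adjusted p of 0.0912 to 0.392 in those cases). The fold with scramble siRNA did not pass with library totals (-0.03, adjusted p = 0.488), with no filter on low counts (adjusted p = 0.0836), without replicate 2 of ER-bound RNA with scramble siRNA (adjusted p = 0.0758) or without replicate 3 of whole-cell RNA with scramble siRNA (adjusted p = 0.0632).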

How the results depend on the processing

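Of 410 summary values (counts of calls, medians and length differences under the alternatives), 383 kept their direction and size and 27 moved. For single genes, 1528 of 1720 values kept direction and side of the threshold, 127 lost a call, 25 gained one and 40 turned round. Library totals gave 20 members higher and a median of 0.03 for ER-bound against whole-cell RNA with scramble siRNA, and 22 higher and 0.06 with Lsg1 siRNA. The GC and length offset, with and without the lysate block, put the median with Lsg1 siRNA at -0.14 and the length difference at -0.09 (Lsg1) and -0.08 (scramble), and coding length put that difference at -0.60 with either siRNA. Without both libraries that stand apart the median with Lsg1 siRNA was -0.08.

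Between the siRNAs in ER-bound RNA, the 3 higher members became 1 with no filter on low counts and 1 to 2 when a library was left out. Mis12, 1 of the 3, also lost its call with DESeq2's size factors (adjusted p = 0.0533), library totals (adjusted p = 0.0531) and DESeq2 (adjusted p = 0.0706). It did so too with the GC and length offset (adjusted p = 0.0826) and without both libraries that stand apart (adjusted p = 0.174). The 1 lower member became 0 with library totals, no filter, DESeq2 or without both libraries, 2 with the block and the GC and length offset, and 0 to 1 when a library was left out. The same-numbered libraries of the 2 siRNAs share only a number, with correlations of 0.00727 to 0.173 in ER-bound RNA. The replicate block there gave 4 members higher and 1 lower (Cenpm gained, adjusted p = 0.0404) and 1463 genes in all, against 710 without it. In whole-cell RNA it put Lsg1 past the threshold (adjusted p = 0.00193). For the fractions the lysate block gave 14 members higher and 21 lower with Lsg1 siRNA and 11 higher and 23 lower with scramble siRNA. Of all 17702 tested genes, 5557 were then higher and 5392 lower with Lsg1 siRNA, and 5415 higher and 5249 lower with scramble siRNA. The lysate block changed no member's call but those of Zwint, Cenph and Cenpw. For the change of the ratio with Lsg1 siRNA it called 10 genes, against 4 without it, and no member.

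Genes that turned round did so mainly under the GC and length offset, and the cause was not tested. Its log2 folds of ER-bound over whole-cell RNA with Lsg1 siRNA were -0.0015 for Cenph (-1.2e-05 with the block), -0.01 for Cenpt, 0.39 for Cenpw, 0.46 for Mad2l1, -0.14 for Aurkb, -0.02 for Birc5, -0.25 for Cdc20 and -0.19 for Bod1. With scramble siRNA they were -0.04 for Cenph, 0.43 for Cenpw (0.42 with the block), 0.46 for Mad2l1, -0.11 for Spc24, -0.01 for Birc5 and -0.24 for Cdc20. Library totals turned Mad2l1 to 0.06 with Lsg1 and 0.03 with scramble siRNA, and Ccnb1 to 0.05 with Lsg1 and 0.04 with scramble siRNA. With a library left out, Cdc20 ran from -0.03 to 0.04 with Lsg1 siRNA and from -0.0092 to 0.05 with scramble siRNA, and Birc5 from -0.0046 to 0.07 with Lsg1 siRNA. All of these but Cenph, Cenpt, Spc24, Aurkb, Bod1 and, with Lsg1 siRNA, Cenpw were not called to begin with. Counts of at least 726 reads per member leave depth no limit on detection.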
